A study of Mus musculus with 76 samples.

Results

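The genes described here encode the nuclear-encoded subunits of the oxidative phosphorylation machinery. They were taken from the raw count table as protein-coding entries whose symbol begins with Nduf followed by a, b, c, s or v and a digit, with Uqcr, with Cox and a digit from 4 to 8, or with Atp5, together with Sdha, Sdhb, Sdhc and Sdhd. Of the 83 entries with such a name, 81 of the 38129 genes in the table also reached a mean of 1 CPM (a gene's count scaled to a fixed total, equal for all libraries) in at least 1 tissue. They comprise 37 genes of complex I, 4 of complex II, 8 of complex III, 16 of complex IV and 16 of ATP synthase. Cox7b2 and Cox8c were the entries that fell short, with means of at most 0.0946 CPM and 0.00472 CPM in any tissue.

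Complex I (NADH dehydrogenase) and complex II (succinate dehydrogenase, which is also an enzyme of the citric acid cycle) pass electrons to ubiquinone. Complex III passes them on to cytochrome c, and complex IV (cytochrome c oxidase) reduces oxygen. Complexes I, III and IV pump protons across the inner mitochondrial membrane, and ATP synthase uses the return of these protons to make ATP. The catalytic cores of complexes I, III and IV and parts of ATP synthase also hold subunits made from the mitochondrial genome. Several complex IV subunits exist as a widespread form and a form of heart and skeletal muscle, and heart muscle is known for its dense mitochondria. Some names are historical, as Ndufa4 is now regarded as a subunit of complex IV and Atp5s is no classical subunit of ATP synthase.

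RNA came from liver (26 libraries), heart (26 libraries) and the suprachiasmatic nucleus, the hypothalamic seat of the central clock (SCN, 24 libraries). Mice were either wild type (WT) or of the genotype Bmal1-VIPKO (KO), in which Bmal1 (symbol Arntl) is knocked out in cells with vasoactive intestinal peptide. Food was given ad libitum (AL) or as time-restricted feeding (TRF), and tissue was taken at circadian time 0 (CT0) or 12 (CT12). The labels do not give the feeding hours, the age or the sex, nor the construct that drives the knockout. The 24 groups held 3 libraries each, except that liver and heart had 4 at either time in TRF KO. Total counts ran from 13502014 to 19018983 per library, and libraries are named here by their title numbers. Nothing in the labels says that the libraries came from separate animals, so p-values measure the spread between libraries. In whole tissue, fewer cells of a type and less RNA per cell cannot be told apart.

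Some features of the libraries bear on every result. Arntl was not lower in the SCN libraries labelled KO, with group means of 20.4 to 26.0 CPM against 19.4 to 25.0 CPM in WT. VIP cells are a part of the SCN, and whole-SCN RNA cannot check a knockout in them. Among the AL libraries of a tissue, 1 per group has a title number of 3 digits, and in liver and heart it lay close to another library of its group, with a chi-square per degree of freedom of 3.31 to 5.49 in liver and 1.75 to 2.96 in heart against 9.68 to 94.2 and 6.04 to 269 for pairs without it. These pairs differed by more than sampling noise and were kept apart, and AL comparisons were repeated without the 3-digit libraries. The 3 heart libraries of AL WT CT12 held brain transcripts: Snap25, a neuronal synaptic gene, read 66.1, 227 and 67.6 CPM in library 47, library 48 and the 3-digit library, at most 1.78 CPM in the other 23 hearts and 947 CPM in the median SCN library. The clock itself differed between feedings, since in WT liver Dbp, a gene driven by the clock, averaged 0.601 CPM at CT0 and 48.9 CPM at CT12 under AL but 142 CPM at CT0 and 1.71 CPM at CT12 under TRF.

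The subunit genes took a far larger share of the counts in heart than in the other tissues. They held 4.93% ± 0.586 of all counts in heart (SD, n = 26), 1.24% ± 0.0772 in liver (n = 26) and 1.05% ± 0.0343 in SCN (n = 24). The lowest heart, library 48 of AL WT CT12 at 2.40%, still lay above the highest liver at 1.41% and the highest SCN at 1.11%. ATP synthase genes contributed most in each tissue, with 2.14% of counts in heart, 0.482% in liver and 0.393% in SCN, followed by complex I with 1.21%, 0.301% and 0.301%. Complex II and complex III were lower in SCN than in liver, at 0.0922% against 0.128% and 0.0777% against 0.132%, whereas complex I and complex IV took nearly the same share in both (0.187% and 0.192% for complex IV). The 13 mitochondrially encoded subunits held 12.2% ± 4.50 in heart, 2.76% ± 0.584 in liver and 1.62% ± 0.184 in SCN, and library 48 alone, at 33.2%, made up the upper end in heart.

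**Figure D1:**
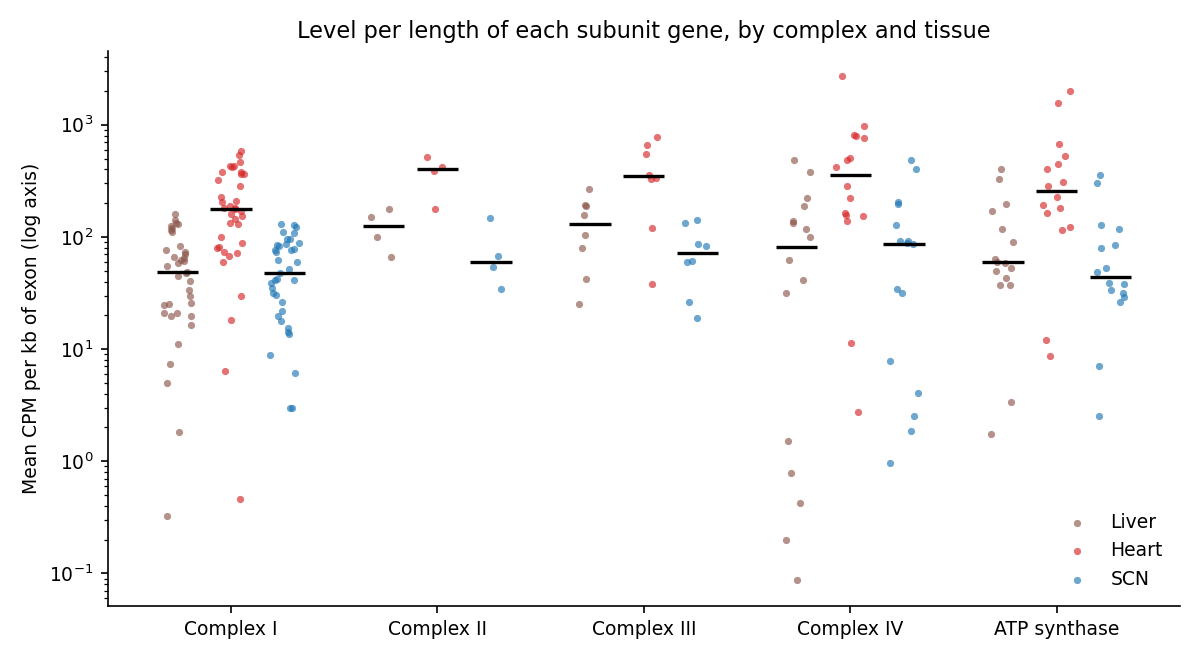
Mean level of each of the 81 genes per tissue in CPM per kb of exon (log axis), grouped by complex, with a point per gene and a line at the median. Heart medians lie above those of liver and SCN in every complex. In liver and SCN, complex IV spreads the most on this axis, with a tissue isoform at its low end. In heart, complex I runs from 0.456 to 583 CPM per kb and complex IV from 2.75 to 2721.

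Per length, the median heart gene read 178 CPM per kb of exon in complex I, 402 in complex II, 346 in complex III, 353 in complex IV and 255 in ATP synthase. The liver medians were 49.1, 125, 130, 81.1 and 59.2 CPM per kb and the SCN medians 47.4, 60.3, 72.0, 87.0 and 43.8 CPM per kb in the same order. Lengths here count all annotated exons of a gene, so ranks per length depend on that choice. By this measure Atp5a1, the alpha subunit of the catalytic head, was the highest ATP synthase gene in all 3 tissues. It read 2008 ± 236 CPM per kb in heart, 404.2 ± 20.7 in liver and 355 ± 13.3 in SCN. Without length, Atp5b had the higher mean in heart (6686 against 6296 CPM), liver (1392 against 1267) and SCN (1270 against 1113). The exons of Atp5b span 4237 bases and a coding transcript 1916, against 3135 and 2471 for Atp5a1. In complex IV the highest gene was Cox6a2 in heart (2721 ± 408 CPM per kb), Cox6a1 in liver (486 ± 103) and Cox8a in SCN (480 ± 32.2). In complex III Uqcr11, a small accessory subunit, led in heart (775 ± 157 CPM per kb) and liver (270 ± 57.8), and Uqcr10 led in SCN (143 ± 9.10). In complex I the highest gene was Ndufa2 in liver (159 ± 29.7 CPM per kb) and Ndufb10 in SCN (131 ± 8.27). In complex II Sdhc, a membrane anchor, was the lowest gene per length in each tissue, at 179 ± 21.0, 65.8 ± 3.07 and 34.2 ± 1.51 CPM per kb in heart, liver and SCN. Sdha, the flavoprotein, was highest in heart (516 ± 54.3) and SCN (147 ± 4.08) and the anchor Sdhd in liver (177 ± 11.7). Sdhc has 3250 bases of exon against a coding transcript of 815. Without length, Sdhd was lower than Sdhc in heart (515 against 582 CPM) and SCN (82.6 against 111 CPM). The lowest gene was Ndufb2 for complex I in liver (0.328 ± 0.0814 CPM per kb) and heart (0.456 ± 0.119), and Ndufa4l2 in SCN (2.99 ± 0.574). For complex III it was Uqcrc1, a core protein, in liver (25.4 ± 7.99) and heart (37.9 ± 10.9) and Uqcrb in SCN (18.9 ± 1.94). Uqcrc1 has 4135 bases of exon against a coding transcript of 1653. Without length, Uqcrb was lower than Uqcrc1 in liver (37.1 against 105 CPM) and heart (105 against 157 CPM). For complex IV a tissue isoform was lowest per length each time: Cox4i2 in liver (0.0865 ± 0.0837), Cox6b2 in heart (2.75 ± 1.11) and Cox8b in SCN (0.958 ± 0.862). For ATP synthase Atp5s was lowest in liver (1.76 ± 0.475) and heart (8.70 ± 0.759), and Atp5l in SCN (2.55 ± 0.236).

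Some of the genes share sequence with others. Of the 81 genes, 44 share at least 1 run of 50 bases of their transcript with an annotated transcript of another gene, on either strand, and 4 share over 50% of these runs: Atp5g2 with 100%, Atp5l with 84.8%, Atp5h with 50.5% and Atp5o with 50.3%. Part of this sequence lies in entries named as copies, such as Atp5c1-ps, and part in neighbours on the opposite strand, as in Ndufb6 beside Smim27 (34.1%). Some neighbours overlap on the same strand, where no strand setting separates the reads. These include Gm49356 for Ndufb9 (19.5% of exon bases) and a second entry named Atp5o for Atp5o. Ndufb2 shares 33.5%. The strand setting of the counting is not given in the sources used here, so levels of these genes are uncertain. Their places among other genes are uncertain too. This holds for Ndufb2, Uqcrb and Atp5l as the lowest of their complexes above, and for the Atp5g shares below, whose sum includes Atp5g2. Ndufb2 and Atp5l also have 5628 and 6443 bases of exon against coding transcripts of 455 and 544 bases, which lowers their level per length. Levels varied more between libraries of a group for short genes: the median SD on the log2 scale in liver was 0.175 for the 21 genes under 1 kb of exon and 0.127 for the 29 genes over 2 kb.

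Heart against liver, 76 of the 81 genes were higher and 2 lower (edgeR quasi-likelihood test, Benjamini-Hochberg adjusted p below 0.05, all 24 groups in 1 model), where 83.6% of the 20006 genes tested were called, 43.5% higher and 40.1% lower in heart. The median log2 difference of the members was 1.35, against 0.18 over all genes tested. It was 1.35 for complex I, 1.09 for complex II, 1.02 for complex III, 1.57 for complex IV and 1.41 for ATP synthase. Each of the 16 ATP synthase genes was higher in heart, from 0.60 for Atp5g2 to 2.41 for Atp5g1 on the log2 scale. The genes that were lower in heart were Cox6a1, by 2.17 ± 0.06 (SE), and Cox8a, by 1.28 ± 0.05 on the log2 scale, both widespread forms of complex IV subunits whose heart forms rose. The genes not called were Ndufb2, Ndufs3 and Uqcrc1, with log2 differences between -0.13 and 0.06. Heart against SCN, where 90.2% of genes tested were called, 44.3% higher and 45.9% lower, 77 members were higher and 3 lower (Ndufb2, Cox6a1 and Cox8a), with a median log2 difference of 2.95 against -0.01 over all genes.

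SCN against liver, the direction of many genes depended on how libraries were scaled. With TMM factors, 75 members were lower in SCN and 5 higher (93.1% of genes tested were called, 45.8% lower and 47.4% higher), with a median log2 difference of -1.39 against 0.05 over all genes. With library totals alone, an alternative chosen after the data were seen, 41 were lower and 27 higher, and the median was -0.08 while that over all genes was 1.34. The median member lay below the median gene under both scalings, and its direction against liver rested on where the median gene was set. Complexes II and III had the lowest medians under TMM, -2.23 and -1.96, and complex IV the least low at -1.07. The members that were higher in SCN under TMM were Cox6a2 (3.63), Cox6b2 (3.23), Cox4i2 (3.13), Ndufb2 (1.92) and Atp5s (0.74).

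The isoforms of complex IV set heart apart most sharply. Cox6a2, the heart and muscle form of subunit 6A, had a lowest, median and highest level of 780, 1872 and 2315 CPM in heart, 0, 0.0587 and 2.84 CPM in liver, and 1.93, 4.72 and 14.7 CPM in SCN. Its widespread partner Cox6a1 read 69.7, 103 and 143 CPM in heart, 267, 310 and 534 CPM in liver and 223, 280 and 343 CPM in SCN. No heart library overlapped a liver or SCN library for either gene. The higher liver values went with heart transcripts: 6 of the 26 livers (1 of TRF WT CT0, 1 of AL WT CT12, 2 of AL KO CT0 and 2 of AL KO CT12) had a summed cardiomyocyte marker level of 83.3 to 121 CPM and Cox6a2 at 1.62 to 2.87 CPM (both scaled within the tissue by TMM factors), and the other 20 had at most 2.89 CPM of these markers and at most 0.180 CPM of Cox6a2. Their part in the liver level of the heart isoforms was not tested. Per length, Cox6a2 held 94.6% ± 0.945 of the pair in heart, 0.190% ± 0.338 in liver and 1.88% ± 0.980 in SCN. Cox7a1, the heart and muscle form of subunit 7A, held 73.8% ± 2.04 of the Cox7a1 and Cox7a2 pair in heart against 1.12% ± 0.465 in liver and 2.83% ± 0.801 in SCN. Cox8b, the heart and muscle form of subunit 8, held 81.2% ± 2.62 of its pair with Cox8a in heart against 0.123% ± 0.202 and 0.202% ± 0.189. Unlike Cox6a1 and Cox8a, the widespread Cox7a2 was also higher in heart than in liver, by 0.58 ± 0.04 on the log2 scale.

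**Figure D2:**
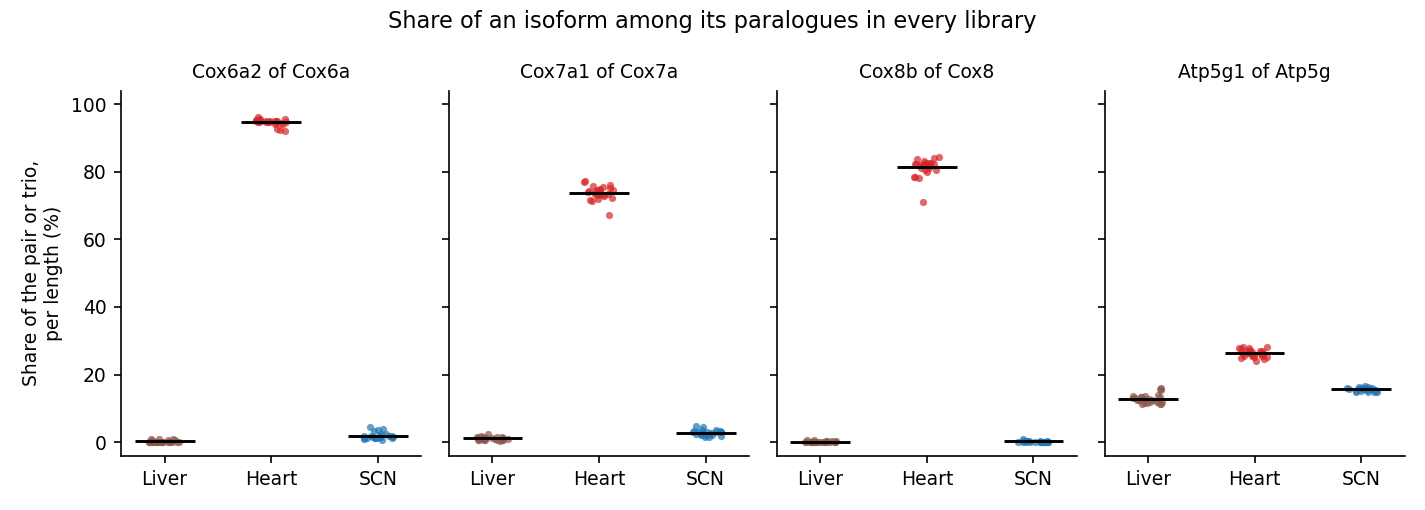
Share of Cox6a2, Cox7a1, Cox8b and Atp5g1 among their paralogues in each of the 76 libraries (per cent of CPM per kb), by tissue, with a line at the mean. The heart libraries lie at 92.0 to 96.2% for Cox6a2, 67.1 to 77.3% for Cox7a1 and 71.0 to 84.2% for Cox8b, and liver and SCN libraries at most 4.88% for these genes; Atp5g1 differs less.

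The other variant forms differed less in share. Cox4i2, a form of subunit 4 known from lung and from low oxygen, held 1.42% ± 0.161 of the Cox4i1 and Cox4i2 pair in heart, 0.0472% ± 0.0447 in liver and 0.893% ± 0.186 in SCN. Cox6b2, known from testis, held 2.01% ± 0.460 of its pair with Cox6b1 in SCN, 0.366% ± 0.148 in heart and 0.0887% ± 0.0584 in liver, and Cox6b2 did not differ between heart and SCN by the test (0.17 on the log2 scale, adjusted p = 0.0977 by edgeR). Ndufa4l2, known as a hypoxia-inducible relative of Ndufa4, held 4.54% ± 0.483 of that pair in heart, 3.44% ± 0.665 in SCN and 1.27% ± 0.356 in liver. The genes Atp5g1, Atp5g2 and Atp5g3 encode the same mature ring subunit of ATP synthase with different import sequences. Per length, Atp5g3 held most of their sum in each tissue (62.9% ± 1.13 in heart, 68.7% ± 2.13 in liver, 63.8% ± 0.797 in SCN). These shares depend on the exon lengths used, which are 4912, 1675 and 2181 bases for Atp5g1, Atp5g2 and Atp5g3. Without length, their means in heart were 1387, 193 and 1465 CPM. By the same measure Atp5g1 held 26.3% ± 1.11 in heart against 12.9% ± 1.31 in liver and 15.6% ± 0.508 in SCN. Of the remaining subunits of this set, Cox4i1, Cox6b1, Cox7b and Ndufa4 were higher in heart than in liver by 1.56, 1.27, 1.58 and 0.93 on the log2 scale.

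Promoters of subunit 6A, 7A and 8 isoforms are shown because these paralogues differ between tissues. That of Cox6a2 is not shown, and that of Cox7a2l is shown because its transcript moved with time in liver. Each line gives the 250 bases before the annotated start (RefSeq, GRCm38.p6, 5′ to 3′ on the gene's strand), with capitals on matches to the motifs searched. Cox6a1 lies at chr5:115348959-115349208 (minus strand), Cox7a1 at chr7:30183921-30184170 (plus), Cox7a2 at chr9:79759854-79760103 (minus), Cox8a at chr19:7217617-7217866 (minus), Cox8b at chr7:140900447-140900696 (minus) and Cox7a2l at chr17:83514334-83514583 (minus).
Cox6a1: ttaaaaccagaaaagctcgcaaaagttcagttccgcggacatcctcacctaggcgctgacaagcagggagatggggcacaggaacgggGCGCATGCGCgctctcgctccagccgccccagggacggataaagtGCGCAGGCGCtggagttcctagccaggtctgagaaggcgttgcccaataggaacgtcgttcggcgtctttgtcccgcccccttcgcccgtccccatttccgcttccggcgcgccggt
Cox7a1: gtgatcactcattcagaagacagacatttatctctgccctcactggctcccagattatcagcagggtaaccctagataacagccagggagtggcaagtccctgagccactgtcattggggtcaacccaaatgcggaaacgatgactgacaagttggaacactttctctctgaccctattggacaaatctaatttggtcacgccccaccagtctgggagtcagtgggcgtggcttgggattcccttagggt
Cox7a2: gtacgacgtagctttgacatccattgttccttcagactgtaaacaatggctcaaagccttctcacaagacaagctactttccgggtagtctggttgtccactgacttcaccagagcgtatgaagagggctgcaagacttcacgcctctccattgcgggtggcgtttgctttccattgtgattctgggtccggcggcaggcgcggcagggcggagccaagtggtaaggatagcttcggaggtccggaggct
Cox8a: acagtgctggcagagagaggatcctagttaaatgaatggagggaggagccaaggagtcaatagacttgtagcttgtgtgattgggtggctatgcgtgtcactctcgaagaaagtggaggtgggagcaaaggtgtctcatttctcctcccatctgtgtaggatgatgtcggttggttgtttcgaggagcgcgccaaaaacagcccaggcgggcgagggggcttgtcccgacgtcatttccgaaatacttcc
Cox8b: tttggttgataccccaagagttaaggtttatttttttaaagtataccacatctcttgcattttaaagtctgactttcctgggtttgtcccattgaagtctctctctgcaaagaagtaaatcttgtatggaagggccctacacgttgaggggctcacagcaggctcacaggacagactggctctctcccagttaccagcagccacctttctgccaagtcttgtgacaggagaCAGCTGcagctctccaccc
Cox7a2l: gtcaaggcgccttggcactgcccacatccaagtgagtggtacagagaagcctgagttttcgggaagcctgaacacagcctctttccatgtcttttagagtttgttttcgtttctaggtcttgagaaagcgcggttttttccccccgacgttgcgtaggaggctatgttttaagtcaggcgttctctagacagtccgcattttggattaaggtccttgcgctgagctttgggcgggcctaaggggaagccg

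The motifs searched on both strands were that of NRF1, a regulator of nuclear genes of mitochondria (GCGCA, 1 free base and GCGC), AAGATGGC (YY1), CCGGAAGT (ETS factors), AAGGTCA (estrogen-related receptors), the E-boxes CACGTG and CAGCTG, and TATAAA. The letters of different motifs do not overlap in the lines shown. Cox6a1 held 2 NRF1 motif matches, which begin 162 and 117 bases before the start, and Cox8b held CAGCTG 19 bases before it. The widespread forms Cox6a1, Cox7a2 and Cox8a had 26, 14 and 11 CG pairs in these 250 bases and the heart forms Cox7a1 and Cox8b had 4 and 1, where the median over 32851 promoters was 6 and that over the 70 member promoters 14. The motif of NRF1 itself holds CG pairs, and the comparison with all promoters was not matched for these. It occurred in 14 of the 70 member promoters (20.0%), which belong to 13 genes, and in 3.74% of all promoters. AAGGTCA occurred in 7.14% against 4.08%, CCGGAAGT in 4.29% against 2.88%, AAGATGGC in 1.43% against 1.56%, CACGTG in 8.57% against 6.02%, CAGCTG in 8.57% against 13.0% and TATAAA in 8.57% against 12.4%. The RefSeq table held promoters of 65 of the 81 genes. A match describes these letters only and shows no binding.

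Lists of genes that work with the subunits differed in how many members were higher in heart than in liver, against 43.5% higher and 40.1% lower over all genes. Of them, 12 of 12 tested mitochondrially encoded subunits, 13 of 14 citric acid cycle genes, 28 of 42 assembly factors and 7 of 16 transcriptional regulators were higher, and 0, 1, 9 and 6 were lower, with medians of 1.78, 2.03, 0.34 and -0.02 on the log2 scale. Of 4 tested partners that the naming rule misses, all were higher, among them Cycs (cytochrome c, 2.08 ± 0.04) and Ndufab1 (the acyl carrier subunit of complex I, 1.29 ± 0.04). The assembly factors with the smallest adjusted p were Atpaf1 for ATP synthase (2.31 ± 0.04) and Uqcc1 for complex III (1.88 ± 0.03). Among the regulators they were Esrrb (5.11 ± 0.09) and Ppargc1a, a coactivator that drives mitochondrial genes (3.34 ± 0.09).

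In liver the summed level of the 81 genes moved little with time, genotype or feeding. The group means ran from 11754 to 12923 CPM, and within TRF WT single libraries ran from 11385 to 13990 CPM at CT0 and from 10946 to 13914 CPM at CT12. Of the 78 members tested in liver, 0 were called between CT12 and CT0 in AL WT (edgeR; 5 at an unadjusted p under 0.05; 0 by DESeq2), where 8.99% of the 14397 genes tested were called, and 0 in AL KO (0 unadjusted, 0 by DESeq2), where 0.0139% were. Under TRF 2 members fell in WT and 1 in KO, where 23.1% and 22.0% of genes were called and 12.1% and 11.5% fell. The member medians in these comparisons were -0.12, -0.01, 0.02 and -0.06 on the log2 scale. With a median SE of 0.108 to 0.125, a log2 change in a single gene that is smaller than this was within the error. Larger changes could also stay uncalled. In AL WT the assembly factor Uqcc1 changed by 0.34 ± 0.11 and only just passed the threshold (edgeR adjusted p = 0.0478).

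Cox7a2l, a relative of subunit 7A that links complexes III and IV into supercomplexes, was the member that moved with time in both genotypes under TRF. It lies on chromosome 17 from 83501918 to 83517330 on the minus strand (GRCm38, ENSMUSG00000024248). The promoter line shown above ends at 83514583, inside this span, since the RefSeq start differs from the outer end of the gene. Of the 50-base runs of its transcript, 19.8% are shared with another annotated gene, Gm6969. In liver its levels were as follows. In TRF WT it read 101, 93.2 and 101 CPM at CT0 and 67.4, 70.6 and 71.9 CPM at CT12. In TRF KO it read 100, 105, 108 and 113 CPM at CT0 and 87.7, 78.8, 88.1 and 83.5 CPM at CT12. Every CT12 library lay below every CT0 library of its genotype, and the log2 changes were -0.49 ± 0.09 (edgeR adjusted p = 0.000428) and -0.33 ± 0.08 (adjusted p = 0.00316).

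Under AL the same gene read 91.8, 72.1 and 85.5 CPM at CT0 and 92.2, 86.7 and 99.0 CPM at CT12 in WT, and 94.7, 93.5 and 92.2 CPM against 107, 93.5 and 107 CPM in KO. The CT12 means were higher but the libraries overlapped those of CT0, and the log2 changes of 0.15 ± 0.09 and 0.13 ± 0.09 were not called. The time effect under TRF differed from that under AL by -0.64 ± 0.13 in WT (adjusted p = 0.000603) and by -0.47 ± 0.12 in KO (adjusted p = 0.0114), where 25.0% and 11.1% of all genes were called for such a difference and 13.1% and 5.9% were negative. In KO this difference was not called in 2 of 22 alternative fits, without low-count filtering and without the 3-digit libraries. In heart Cox7a2l changed by 0.06 ± 0.09 and 0.08 ± 0.08 between the times under TRF in WT and KO, and in SCN by -0.05 ± 0.06 in TRF WT, none of them called.

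**Figure D3:**
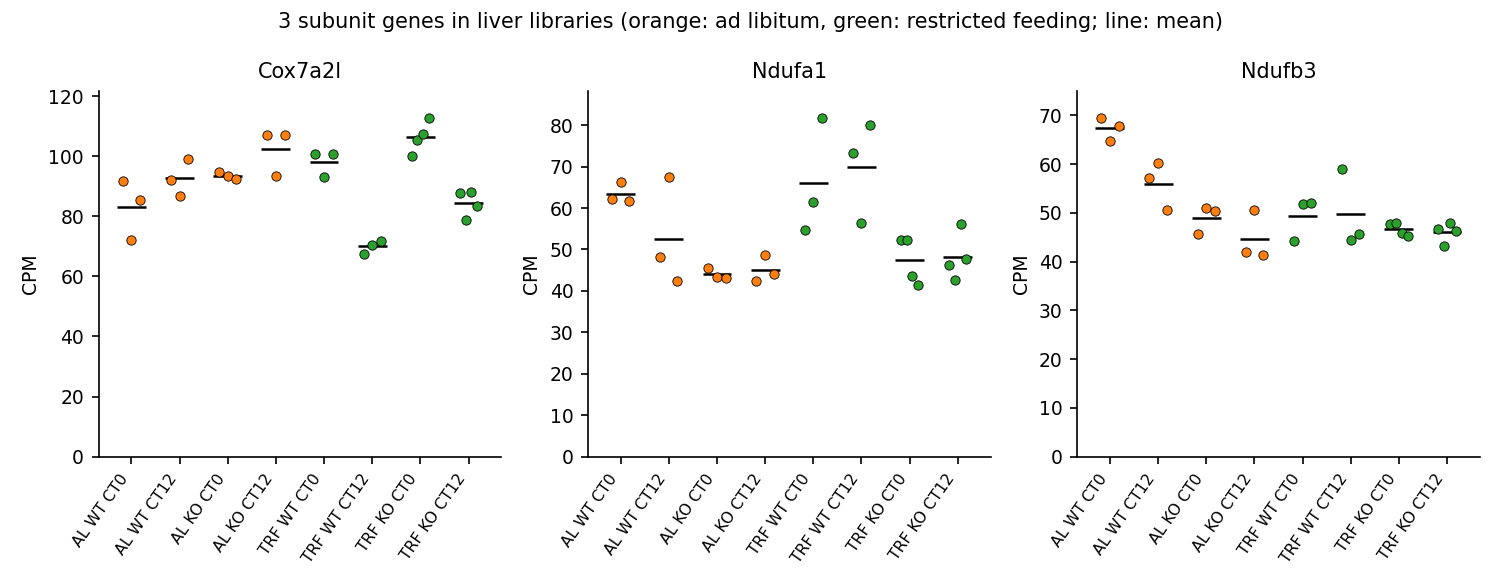
Levels of Cox7a2l, Ndufa1 and Ndufb3 in the 26 liver libraries (CPM, a point per library and a line at the group mean). Cox7a2l is lower at CT12 than at CT0 in both TRF genotypes, the group means of Ndufa1 are lower in KO than in WT, and those of Ndufb3 are highest in AL WT.

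The other liver member called with time was Atp5s, which in TRF WT read 5.37, 3.38 and 4.43 CPM at CT0 and 2.48, 3.27 and 1.62 CPM at CT12, a log2 change of -0.83 ± 0.26 (adjusted p = 0.0244) at a low level. Ndufb4, an accessory subunit of complex I, was called for the feeding by time difference in WT (0.41 ± 0.15, adjusted p = 0.0475, where 11.9% of genes were positive), at 50.1, 52.0 and 50.6 CPM and then 47.5, 49.3 and 39.6 CPM under AL, and 41.0, 47.0 and 52.9 CPM and then 62.5, 49.4 and 54.8 CPM under TRF. The call was lost in 4 of 14 alternative fits for Atp5s and in 13 of 19 for Ndufb4. No member was called for the genotype by time difference in liver (edgeR; 1 at an unadjusted p under 0.05 under AL and 0 under TRF; 0 by DESeq2), where 1.56% and 0.0556% of genes were called.

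Some single genes of the companion lists changed with time in liver. Cs, citrate synthase, averaged 174 CPM at CT0 and 124 CPM at CT12 in AL WT, but 124 CPM and 169 CPM in TRF WT, and these log2 changes of -0.49 ± 0.12 and 0.45 ± 0.12 were both called (edgeR adjusted p = 0.00752 and 0.00636). Ppara, a nuclear receptor of fatty acid oxidation, rose with time in AL WT (0.67 ± 0.19, adjusted p = 0.0229) and fell in TRF WT (-1.38 ± 0.19, adjusted p = 1.35e-05) and TRF KO (-1.08 ± 0.16, adjusted p = 3.15e-05). Uqcc1, an assembly factor of complex III, likewise rose in AL WT by 0.34 ± 0.11 and fell in TRF WT and KO by 0.40 ± 0.11 and 0.44 ± 0.09 on the log2 scale. Over the lists, 5 of 16 regulators were called with time in TRF WT and 6 in TRF KO, 3 and 5 of 14 citric acid cycle genes, 4 and 6 of 42 assembly factors and 0 of 12 mitochondrially encoded subunits (edgeR), beside 23.1% and 22.0% over all genes.

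Between genotypes in liver, 4 members were lower in KO under AL (20.5% of genes called, 10.3% lower), namely Ndufb3, Ndufa1, Cox6a1 and Atp5k, and 5 were called under TRF (10.4% of genes called, 5.32% higher and 5.06% lower), of which Ndufa4l2, Cox7a2l and Ndufc2 were higher and Ndufa1 and Cox7a1 lower. Ndufa1, an X-linked accessory subunit of complex I (chromosome X, 37187588 to 37191163), was called under both feedings. In TRF it read 54.7, 61.4 and 81.8 CPM at CT0 and 73.3, 56.4 and 80.1 CPM at CT12 in WT, against 52.4, 52.4, 43.6 and 41.3 CPM and 46.3, 42.6, 56.2 and 47.6 CPM in KO. All KO libraries lay below the WT libraries of the same time, by a narrow margin, and the log2 difference was -0.51 ± 0.10 (adjusted p = 0.00391). In AL it read 62.2, 66.2 and 61.7 CPM in WT and 45.5, 43.4 and 43.1 CPM in KO at CT0, and 48.2, 67.4 and 42.3 CPM against 42.5, 48.7 and 44.2 CPM at CT12, a difference of -0.37 ± 0.11 (adjusted p = 0.0208) with an overlap at CT12. In heart the differences were 0.19 ± 0.14 under AL and 0.20 ± 0.13 under TRF, and in SCN -0.11 ± 0.07 and -0.10 ± 0.07, none of them called.

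Ndufb3, an accessory subunit of the membrane arm of complex I (chromosome 1, 58586384 to 58595964), read 69.5, 64.7 and 67.9 CPM at CT0 and 57.2, 60.2 and 50.6 CPM at CT12 in AL WT liver. In AL KO it read 45.7, 51.0 and 50.4 CPM at CT0 and 42.0, 50.6 and 41.4 CPM at CT12. The KO values were lower by 0.39 ± 0.07 on the log2 scale (adjusted p = 0.000673). At CT12 the highest KO library met the lowest WT library. Under TRF the difference was -0.10 ± 0.07 and was not called. Averaged over genotypes and times Ndufb3 was lower under TRF than under AL by 0.16 ± 0.05 (adjusted p = 0.0286). Cox6a1 fell by 0.40 ± 0.13 in AL KO (adjusted p = 0.0361), where AL WT held the highest libraries, 39 at CT0 (521 CPM) and 48 at CT12 (469 CPM), against 286 to 348 CPM in the other AL WT libraries and 270 to 308 CPM in AL KO. This call was lost in 9 of 19 alternative fits. Without the 3-digit libraries, Ndufb3 was called under AL in liver and Ndufa1 and Cox6a1 were not.

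The remaining liver calls were small or at low levels. Ndufa4l2 was higher in TRF KO than in TRF WT by 0.68 ± 0.16 (adjusted p = 0.0107), at 1.38 to 3.21 CPM against 1.16 to 1.80 CPM. Cox7a2l and Ndufc2, a complex I subunit, were higher by 0.19 ± 0.06 and 0.22 ± 0.07 (adjusted p = 0.0395 and 0.0405), and Cox7a1 was lower by 0.93 ± 0.28 (adjusted p = 0.0335) at levels of 0.358 to 1.79 CPM. Of 22 alternative fits, 16 did not call Cox7a2l here, 14 did not call Ndufc2 and 9 did not call Cox7a1. For Cox7a1, a heart form, the TRF WT side includes a CT0 library with cardiomyocyte transcripts and the TRF KO side includes none. The part of that library in the difference was not tested. Between feedings 5 members were called (19.8% of genes called, 10.9% higher and 8.95% lower): Atp5g1 (0.19 ± 0.06, adjusted p = 0.0263), Atp5g2 (0.18 ± 0.06, adjusted p = 0.0332), Ndufb2 and Ndufa7 were higher and Ndufb3 lower under TRF. Without the 3-digit libraries 0 members were called between feedings in liver. Of the mitochondrially encoded subunits, 5 of 12 were lower under TRF, with mt-Cytb at -0.40 ± 0.10 and mt-Co2 at -0.31 ± 0.09.

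In heart the time effect of AL WT stood apart. Of the 81 members, 74 were lower at CT12 and 0 higher, where 40.3% of the 16397 genes tested were called and 17.2% were called lower, with a member median of -0.54 against 0.01 over all genes on the log2 scale. The complexes moved alike, with medians of -0.55, -0.52, -0.54, -0.55 and -0.50 for complexes I to IV and ATP synthase, and with 35 of 37, 4 of 4, 6 of 8, 13 of 16 and 16 of 16 genes lower. Ndufb2, Ndufs3, Uqcrb, Uqcrc1, Cox6a1, Cox6b2 and Cox8a were not called. Ndufa10, a subunit of complex I, read 639, 644 and 630 CPM at CT0 and 481, 459 and 489 CPM at CT12, a log2 change of -0.42 ± 0.06 (edgeR adjusted p = 8.81e-06), and Ndufa5, a subunit of its peripheral arm, read 171, 188 and 175 CPM and then 129, 110 and 134 CPM (-0.51 ± 0.08, adjusted p = 6.98e-06). Ndufs4, an accessory subunit of the same arm, fell by 0.45 ± 0.07 (adjusted p = 2.74e-05). In each of these genes the CT0 and CT12 libraries did not overlap.

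The same 3 CT12 libraries were those with brain transcripts, and their cardiomyocyte marker level was lower. The sum of 6 cardiomyocyte markers read 54276, 42073 and 54206 CPM in library 47, library 48 and the 3-digit library against 66331 to 88504 CPM in the other 23 hearts, and 5 of these 6 genes fell in this comparison with a median of -0.44 on the log2 scale. The sum of 8 neuron markers read 506, 1232 and 506 CPM against 95.3 to 122 CPM, and the 8 markers were all higher at CT12. The sum of 6 markers of oligodendrocytes and astrocytes read 442, 1315 and 447 CPM against 11.4 to 27.3 CPM, and that of 4 atrial markers 2864, 346 and 2768 CPM against 15.3 to 3198 CPM in the other 23 hearts, where AL KO CT0 read 1243, 1259 and 3198 CPM. The part of these admixtures in the fall of the subunit genes was not tested. Relative to the cardiomyocyte markers, the summed members read 0.781, 0.605 and 0.770 at CT12 and 0.788, 0.736 and 0.802 at CT0, so that library 47 and the 3-digit library lay within the CT0 range and library 48 below it. Library 48 also held 34.2% of its counts in genes of the mitochondrial genome, against 7.76 to 13.6% in the other hearts.

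Counted only on genes over 4 times higher in heart than in SCN, a choice made after the data were seen, 3 of 47 members were lower with a median of -0.16, where 17.8% of 1988 genes tested were called; these were Ndufa9, Ndufs6 and Cox8b. In that fit Ndufa10 changed by 0.00704 and Ndufa5 by -0.10. The change in the gene set also changes the scaling factors, so the fall in AL WT heart cannot be told apart from the makeup of these libraries. Without the 3-digit libraries 72 members were called lower, and without library 48 the count was 75 with a median of -0.33. With the compared groups alone 8 members were called lower, and with library totals in place of TMM factors 44 were. By library totals the members held 4.76%, 2.40% and 4.68% of counts in library 47, library 48 and the 3-digit library, and 4.62 to 5.61% in the other 23 hearts, so that only library 48 lay outside their range. All 3 lay below the other AL hearts, which held 4.98 to 5.61%, and the overlap was with TRF hearts.

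**Figure D4:**
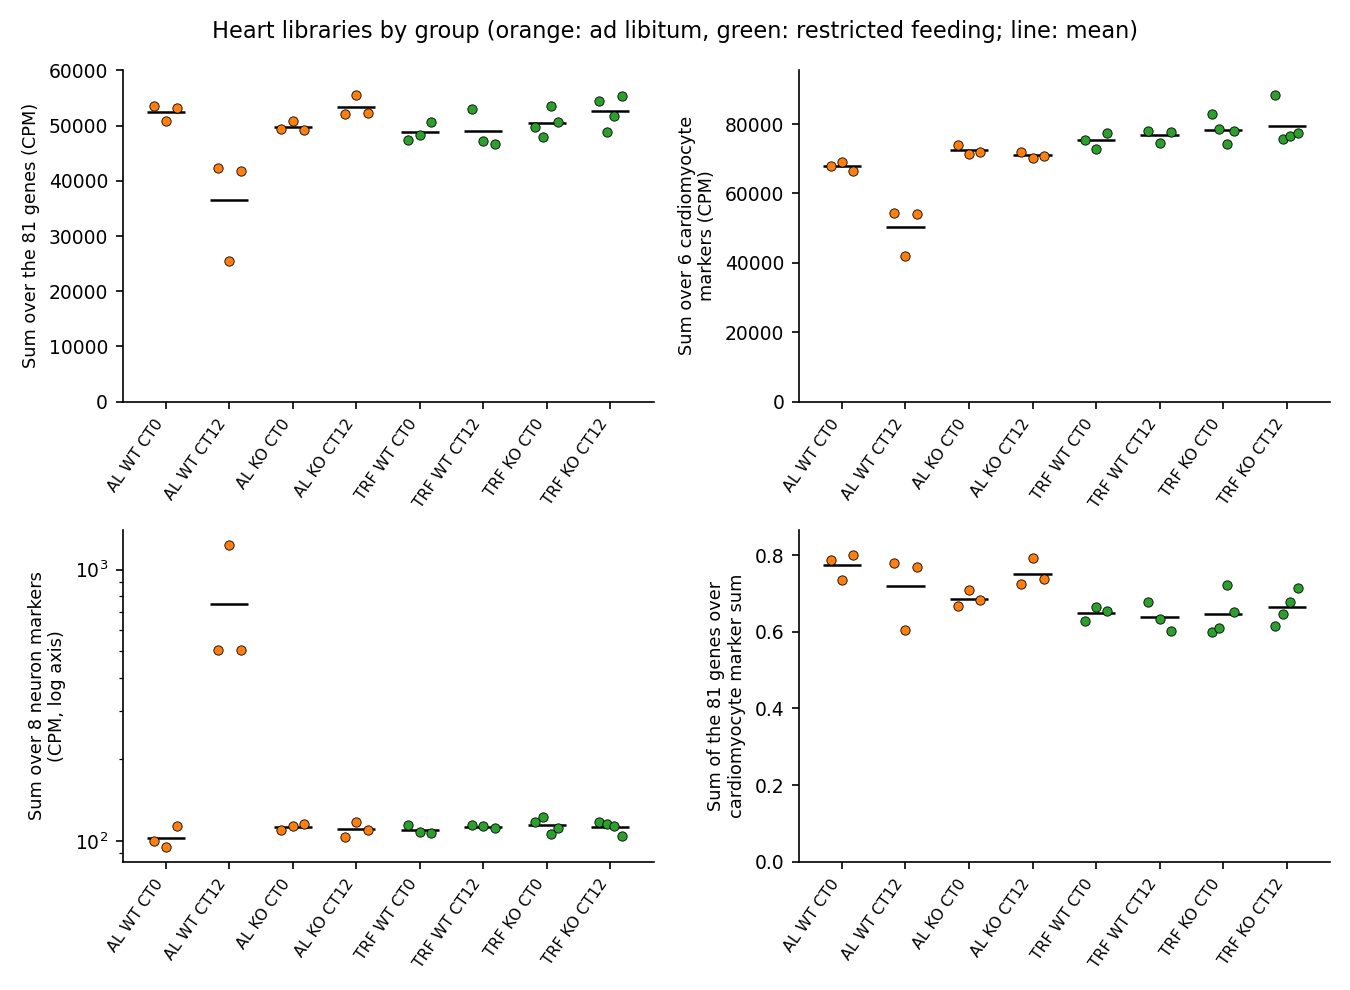
Heart libraries by group: summed level of the 81 genes, summed cardiomyocyte markers, summed neuron markers (log axis), and the ratio of the first sum to the second, with a point per library and a line at the group mean. The sums use TMM factors, and the 3 AL WT CT12 libraries are lowest in the first and second. They are highest in neuron markers, while 2 of them have a ratio within that of AL WT CT0. By library totals, which are not drawn, all 3 lie below the other AL hearts in the first sum. Only library 48 then lies below the TRF hearts as well.

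The interactions that include this group followed it. For the genotype by time difference under AL 70 members were called, all of them positive (28.5% of genes called, 11.2% positive), with a median of 0.65. Here 34 of 37 genes of complex I, 4 of 4 of complex II, 5 of 8 of complex III, 13 of 16 of complex IV and 14 of 16 of ATP synthase were called. In AL KO hearts alone, 0 members were called with time (edgeR; 0 at an unadjusted p under 0.05; 0 by DESeq2; 0.171% of genes called), and the member median was 0.11. For the feeding by time difference in WT 49 members were called, all positive (29.9% of genes called, 12.4% positive). These comparisons share the AL WT libraries. On genes over 4 times higher in heart than in SCN, 1 and 0 of 47 members were called, where 10.4% and 14.0% of 1988 genes were.

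Averaged over times, 14 members were higher and 1 lower in AL KO than in AL WT hearts (18.6% of genes called, 6.34% higher and 12.2% lower), among them Atp5c1, the gamma subunit of ATP synthase (0.23 ± 0.05, adjusted p = 0.00201), Sdha (0.27 ± 0.07, adjusted p = 0.00692) and Atp5o, its peripheral stalk subunit (0.26 ± 0.07, adjusted p = 0.0142). At CT0 alone, without the libraries that hold brain transcripts, 0 members were called for this difference (1.46% of genes called), the member median was -0.13, and Atp5c1 and Atp5o stood at -0.0248 and -0.0274. The level of Sdha was 1767, 1276 and 1820 CPM in AL WT CT12 and 2142 to 2360 CPM in the other AL hearts. The gene called lower, Ndufb2, had a log2 difference of -0.56 ± 0.17 (adjusted p = 0.0236) and is a gene that was higher in SCN than in heart.

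In the heart comparisons without this group few subunit genes were called. Under TRF 0 members were called with time in WT (edgeR; 0 at an unadjusted p under 0.05; 0 by DESeq2; 4.37% of genes called), with a median SE of 0.143 on the log2 scale. In TRF KO 1 was called (3.22% of genes called, 1.48% lower), Cox6b2, which fell by 0.84 ± 0.24 (adjusted p = 0.0498) and was not called in 11 of 17 alternative fits. Between genotypes under TRF 1 was called (2.76% of genes called, 1.26% higher), Ndufb9 of complex I, at 69.0 to 92.8 CPM in KO and 56.4 to 71.9 CPM in WT (0.29 ± 0.08, adjusted p = 0.0497), which 16 of 24 alternative fits did not call. The genotype by time difference under TRF and the feeding by time difference in KO gave 0 called members (edgeR; 0 and 0 at an unadjusted p under 0.05; 0 and 0 by DESeq2; 0.0% and 1.65% of genes called). With time under TRF 2 of 42 assembly factors were called in WT and 2 in KO, beside 4.37% and 3.22% over all genes. Ndufaf4, for complex I, rose with time under TRF by 0.54 ± 0.11 in WT and 0.41 ± 0.10 in KO, and Cox10, which makes heme O, the precursor of the heme A of complex IV, rose by 0.34 ± 0.09 and 0.33 ± 0.08, all of them called by edgeR.

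Between feedings in heart 9 members were higher under TRF (21.9% of genes called, 8.08% higher), of which Cox6b2 was also called without the AL WT CT12 group, where 1 member in all and 8.7% of genes were. Cox6b2 lies on chromosome 7 from 4751792 to 4753094. It read 2.45, 2.76 and 1.67 CPM in AL WT CT0, 2.53, 1.96 and 3.06 CPM in AL WT CT12, 1.66, 2.56 and 1.99 CPM in AL KO CT0, and 2.11, 1.72 and 1.92 CPM in AL KO CT12. Under TRF it read 5.09, 3.48 and 5.20 CPM in WT CT0, 3.39, 3.96 and 3.03 CPM in WT CT12, 2.76, 4.25, 5.42 and 6.03 CPM in KO CT0, and 2.68, 2.63, 1.64 and 3.35 CPM in KO CT12. The TRF libraries mostly lay above the AL libraries, with overlaps in 1 library each of WT CT12 and KO CT0 and in KO CT12, and the log2 difference was 0.76 ± 0.14 (adjusted p = 0.00029). In SCN the difference was -0.06 ± 0.13 and was not called. Ndufa10 and Ndufa5, the other genes with the smallest adjusted p, were higher under TRF by 0.18 ± 0.03 and 0.14 ± 0.04 (adjusted p = 0.000138 and 0.00652), with AL WT CT12 as their lowest group.

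In SCN the subunit genes were the most even of the 3 tissues. The libraries themselves were not uniform, since the summed level of 6 SCN markers ran from 32.9 to 1376 CPM over the 24 SCN libraries. The part of this in the levels of the subunit genes was not tested. Group means of the summed subunit genes ran from 10308 to 10888 CPM, and the median SE of a time effect was 0.0771 on the log2 scale, against 0.125 in liver and 0.144 in heart for AL WT. For the 4 time effects, 2 genotype effects and 4 interactions 0 members were called (edgeR; between 0 and 9 of 81 at an unadjusted p under 0.05, the most for TRF KO with time; 0 by DESeq2), where 0.0276% of the 18133 genes tested were called for time in AL WT, 0.0165% for time in TRF WT, 0.00551% for genotype under TRF and 0.0% for each of the others. In TRF KO, 77 of 81 members had a negative time effect, with a median of -0.08 against -0.0046 over all genes tested. These members were read in the same 3 libraries at each time, so their directions are not independent. Between feedings 3 members were higher under TRF (16.3% of genes called, 8.96% higher): Cox6a1 (0.21 ± 0.06, adjusted p = 0.0248), Atp5a1 (0.08 ± 0.03, adjusted p = 0.0378) and Atp5b, the catalytic beta subunit (0.09 ± 0.03, adjusted p = 0.04999).

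The call was lost in 2 of 30 alternative fits for Cox6a1, 14 for Atp5a1 and 19 for Atp5b. Cox6a1 in SCN read 221 to 332 CPM over the 12 AL libraries and 269 to 350 CPM over the 12 TRF libraries, so the groups overlapped. The direction of these feeding calls as a set depended on the libraries and the scaling. Without the 3-digit libraries 1 member was higher and 8 lower and with library totals alone 1 was higher and 7 lower. Of the regulators, Ppargc1b (0.48 ± 0.08) and Esrrb (0.60 ± 0.12) were called higher under TRF in SCN.

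**Figure D5:**
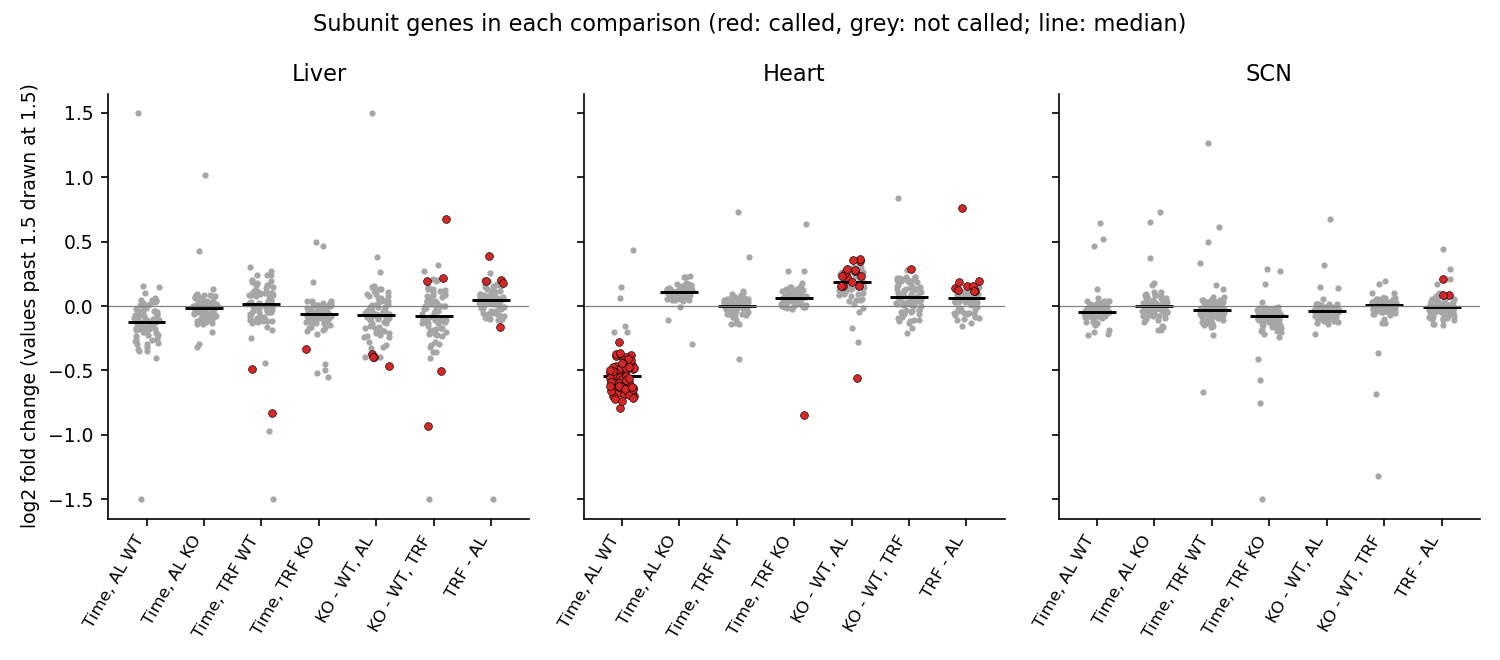
Log2 fold changes of the members in 7 comparisons per tissue (time is CT12 against CT0), with called genes in red, genes not called in grey and a line at the median. The AL WT time effect in heart is the only one of the 21 in which over 15 members were called, and in SCN 3 members were called in all.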

How the data were processed

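RNA of liver, heart and SCN was sequenced from NEBNext Ultra II libraries made from TRIzol extracts, per the labels' protocols. The authors deposited raw counts per gene for 76 libraries, with no normalization. FastQC 0.11.8, STAR and the builds mm10 and GRCm38 are named in the submitters' processing notes; the counter, the strand setting and the annotation version are not given in the sources used here. Total counts of 13502014 to 19018983 per library set the precision, and levels below about 1 CPM rest on few counts.

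Groups came from the labels. Genes kept by filterByExpr (14397 in liver, 16397 in heart, 18133 in SCN, 20006 over all tissues) were fitted with edgeR 4.0.16 in R 4.3.3 (TMM factors, robust quasi-likelihood test), with 8 group means per tissue, or 24 for the comparisons of tissues with equal weight for the 8 conditions. Benjamini-Hochberg adjustment ran over all genes tested, and a gene was called at an adjusted p below 0.05. Genotype and feeding effects are averages over the other conditions. Per-library CPM used TMM factors within a tissue; tissue levels, isoform shares and CPM per kb used library totals and the exon union length from GENCODE vM21, which matched 99.8% of gene IDs. DESeq2 1.42.0, RLE factors, library totals alone, no filter, the compared groups alone and left-out libraries or genes were alternatives. The fit was tested on simulated data.

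The text names the tissue isoforms of complex IV and ATP synthase, up to 3 called members per direction and comparison with the smallest adjusted p, the highest and lowest member per length in each complex, up to 2 called genes per companion list and comparison, and Arntl and Dbp; other genes were named after their values were seen. The result of 1 gene that met this rule is not reported here. Members and lists were chosen with earlier results of these data known. Title numbers were not taken as pairs, since no label says so and the correlations were near 0.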

Additional observations from a re-analysis of the deposited data

Results flagged for a closer look

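For several genes a test of the difference between 2 time effects was past the threshold (edgeR, adjusted over all genes). In liver the TRF minus AL difference of the time effect was -0.64 on the log2 scale for Cox7a2l in WT and -0.47 in KO, and 0.41 for Ndufb4 in WT. In heart the KO minus WT difference under AL was 0.66 for Ndufa5, 0.48 for Ndufa10 and 0.49 for Atp5j, and the TRF minus AL difference in WT was 0.57 for Ndufa5, 0.46 for Ndufa10 and 0.50 for Ndufb5. The heart differences rest on the AL WT CT12 libraries that held brain transcripts.

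In groups of 4 libraries, 4 of 119 values lay far from the rest of their group, by a gap to the nearest library, relative to the range, above Dixon's 95% critical value, where chance gives about 1 in 20. Ndufa4l2 read 17.5 CPM in heart library 28 of TRF KO CT12 against 20.7 to 20.9 CPM in the others. The complex III sum read 1454 CPM in liver library 20 of TRF KO CT0 against 1311 to 1324 CPM. Cox6a2 read 0.134 CPM in liver library 73 of TRF KO CT0, where the others were at 0, and Cox6b2 read 0.0659 CPM in liver library 28 of TRF KO CT12 against 0.119 to 0.123 CPM; both rest on a few counts.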

How the results depend on the processing

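The tissue comparisons kept 78, 80 and 80 to 81 called members when any title number was left out, and a replicate block for the title number gave 78, 80 and 80, equal to the fits without it; numbers paired across tissues correlated with a median r of 0.0154, 0.0170 and 0.0119, so no pairing was established. The cause of the changes below was not tested. In heart, time in AL WT (74 called) gave 8 with the compared groups alone, 3 on genes over 4 times SCN and 44 with library totals alone; genotype by time under AL (70) gave 25, 1, 14 and, without genes over 4 times heart in SCN, 44; feeding by time in WT (49) gave 13, 0, 8 and 20. Heart genotype under AL (15) gave 1, 0, 2 and 2 in these fits, 9 with no low-count filter, 7 without the 3-digit libraries and 0 without the AL WT CT12 group. Heart feeding (9) gave 15 with DESeq2, 3 on genes over 4 times SCN (all lower), 2 with totals, 4 without SCN genes and 1 without that group. Heart genotype under TRF (1) gave 11 with the compared groups, 3 on genes over 4 times SCN, and 0 with totals, no filter, without the 3-digit libraries and without libraries 55 and 64; time in TRF KO (1) gave 0 in all 6. In liver, feeding (5) gave 1 with no filter and 0 without the 3-digit libraries, and feeding by time in KO (1) gave 0 in both; feeding by time in WT (2) gave 1 with RLE factors, compared groups, no filter or without the 3-digit libraries, and 4 with totals. Liver genotype under AL (4) gave 9 with DESeq2, 11 with compared groups, 12 with totals and 2 without the 3-digit libraries; under TRF (5) it gave 1 with compared groups, 3 with no filter, 2 without the 3-digit libraries and 2 without libraries 55 and 64. With the compared groups alone, liver genotype by time under AL (0), time in AL WT (0) and time in TRF WT (2) gave 1 each. SCN feeding (3) gave 8 with totals, 0 with no filter and 9 without the 3-digit libraries. Leaving out 1 library gave 7 to 21 for heart feeding, 28 to 72 for feeding by time in WT, 9 to 35 for genotype under AL, 0 to 1 for genotype under TRF and time in TRF KO; in liver 1 to 9 for feeding, 1 to 2 and 1 to 12 for feeding by time in KO and WT, 1 to 10 and 2 to 6 for genotype under AL and TRF, 1 to 2 and 1 to 5 for time in TRF KO and WT; and 1 to 6 for SCN feeding. Directions turned for Atp5c1 (-0.0248) and Atp5o (-0.0274) in heart genotype under AL without the AL WT CT12 group, for Ndufa10 (0.00704) in heart time in AL WT on genes over 4 times SCN, and, with library totals alone, for Cox4i1 (0.13), Cox7a1 (0.75), Cox7a2l (0.49), Cox8a (0.35) and Ndufa4l2 (0.77) in SCN against liver and Cox6b2 (-0.63) in heart against SCN. Cox7a2l in liver with time under TRF in both genotypes, Ndufb3 in liver genotype under AL, Ndufa1 in liver genotype under TRF and Cox6b2 in heart feeding were called in every alternative run.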
